A study of Homo sapiens with 33 samples.

Results

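Read counts were deposited for 900 RNA fragments from EZH2 RIP-seq in wild type K562 cells, and 504 of these (56.0%) lay inside protein-coding genes. The 900 are the rows of the count tables, and RIP-seq fragments outside these tables were not analysed here. A fragment was taken as a member when at least 50% of its length fell in the span of a protein-coding gene in GENCODE 44, on either strand. Of the 504 members, 503 lay wholly inside such genes and 1 had 51.6% of its length inside. Only 2 of the other 396 fragments touched a coding gene at all, with at most 18.8% of their length. K562 is an established human erythroleukemia line that carries the BCR-ABL1 fusion. Reads over each fragment had been counted in 4 RNA-seq libraries from wild type cells, named Cytoplasmic, Nuclear, Nuclear PolyA+ and Nuclear PolyA-. The last pair were made from nuclear RNA, the first of them from RNA held by poly(A) beads and the second from the RNA that the beads left unbound. Each fraction was 1 library of 1 cell line, so no difference below has a replicate check and none was tested. Intervals below cover counting error only, or the spread over fragments where a median is given.

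EZH2 is the catalytic subunit of Polycomb repressive complex 2 (PRC2), which methylates histone H3 at lysine 27 and is known to bind many RNAs. Genes are transcribed as precursors that hold both exons and introns. Introns are removed in the nucleus and are usually degraded there, whereas most mature mRNAs receive a poly(A) tail at the 3′ end and leave for the cytoplasm. A precursor that is still being transcribed has no tail yet, so an intron can be read from nascent RNA, from a retained intron in tailed RNA or from an excised intron.

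Within members, the depth was low in the cytoplasm and higher in the nucleus. The sum over members was 4511 reads in the cytoplasmic library, 48539 in the nuclear, 23452 in the nuclear polyA+ and 48235 in the nuclear polyA- library. The median member held 3 cytoplasmic, 55 nuclear, 16 polyA+ and 56 polyA- reads. In the cytoplasm 88 members were at 0 and 226 were under 3 reads, whereas only 4 members were at 0 in the nuclear library. Library totals outside the fragments were not used here, so counts were compared as deposited and also after scaling. In the input RNA of the RIP-seq, the 11 markers of K562 cells were between 12 FPKM (HBZ, an embryonic globin) and 218 FPKM (HBG2, a fetal globin), and GATA1, the erythroid transcription factor, was at 15.3 FPKM. Among 8 markers of other cell types, CD14 was listed at 0, and CD3E, MS4A1, COL1A1 and PECAM1 were at or below 1.79 FPKM. The epithelial genes EPCAM and KRT18 were at 27.9 and 47.0 FPKM in the same RNA.

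Most members were introns, and the few coding exons among them had other read counts, described further on. For 4 of the coding exon members the sequence is printed here with 20 flanking genomic bases on either side, since they are coding sequence, unlike most of the list. Coordinates are GRCh38, sequences read 5′ to 3′ on the strand of the host gene, and capitals mark the member. In EXOC4 the lower-case bases after it begin with gt, the start of the next intron, and in EZH2 and GOLGA1 the member ran 1 base into that intron. They lay at chr7:133275084-133275191 and chr7:133356485-133356593 (EXOC4, plus strand), chr7:148809289-148809410 (EZH2, minus strand) and chr9:124928167-124928305 (GOLGA1, minus strand), flanks included.
EXOC4 1: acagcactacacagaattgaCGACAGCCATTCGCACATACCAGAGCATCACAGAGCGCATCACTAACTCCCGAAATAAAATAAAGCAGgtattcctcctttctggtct
EXOC4 3: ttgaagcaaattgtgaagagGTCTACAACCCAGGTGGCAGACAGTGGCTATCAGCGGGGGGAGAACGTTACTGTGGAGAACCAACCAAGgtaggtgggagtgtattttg
EZH2 4: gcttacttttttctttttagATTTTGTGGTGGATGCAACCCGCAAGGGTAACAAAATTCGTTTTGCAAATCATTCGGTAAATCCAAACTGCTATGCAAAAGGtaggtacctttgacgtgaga
GOLGA1 1: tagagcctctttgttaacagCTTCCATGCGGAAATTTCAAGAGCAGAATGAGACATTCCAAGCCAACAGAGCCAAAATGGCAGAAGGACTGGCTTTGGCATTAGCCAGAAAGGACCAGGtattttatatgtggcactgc

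A word of 16 bases stood in more members than any other, with either strand counted and simple repeats left out: AATCCCAGCACTTTGG, with the reverse complement CCAAAGTGCTGGGATT. It belongs to the sense strand of Alu, the most abundant short repeat of human introns, which is copied many times in the genome. The word was named from background knowledge, since no repeat annotation was used, and was chosen after the values were seen. Of the word and its reverse complement, the one held by more members on the host strand was taken. Which strand is higher in members was therefore set by that choice, and the counts outside the members had no part in it. Members held this repeat mostly in the direction of the host gene, and the rest of the same genes did not. The Alu word lay on the host strand of 61 members and on the other strand of 15, 1 member holding both. Over the 232 host genes outside the members, it occurred 3243 times on the host strand and 3966 times on the other strand. The host strand therefore held 81.5% of the copies inside members and 45.0% of the copies in the rest of the same genes. Counted per length, members had 52.4 copies per Mb on the host strand, close to the 55.7 in the rest of the genes, but 11.9 against 68.1 on the other strand. The windows of the same length just upstream of the members held the word on the host strand in 52 cases and on the other strand in 53, and those just downstream in 64 and 65. The Alu word was on either strand in 14.9% of members and in 12.1% of the 396 other fragments, which have no host strand.

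Runs of at least 15 A on the host strand occurred 73 times in members, and runs of at least 15 T 35 times. In the rest of the genes, these runs occurred 3531 and 4818 times. Reads with a low mapping quality had been removed before counting, and the part of that step in the pattern was not tested.

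**Figure D1:**
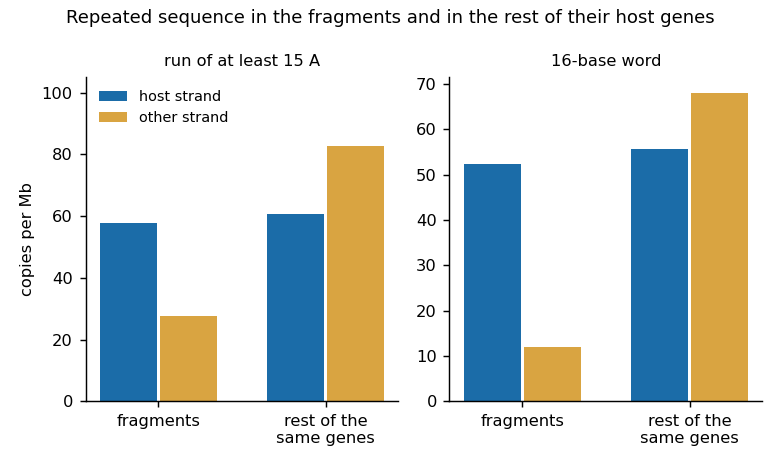
Copies per Mb (y axis, each panel with its own scale from 0) of runs of at least 15 A and of the 16-base Alu word, in the 504 fragments and in the rest of their 232 host genes, on the host strand (blue) and the other strand (yellow). In the fragments the host strand is the higher of the pair in both panels, which for the word follows from how its strand was chosen. In the rest of the genes the other strand is the higher in both.

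Members were mostly nuclear and mostly unbound by poly(A) beads in the counts as deposited, close to the share over all 900 fragments. At least 2-fold more nuclear than cytoplasmic reads were counted in 454 members (90.1%), where all fragments gave 88.4%. Counts under 3 were set to 3 in these ratios. No member and no fragment had 2-fold more cytoplasmic reads (percent called 0). At least 2-fold more polyA- than polyA+ reads were counted in 333 members (66.1%, against 64.3% of all fragments). The reverse, at least 2-fold more polyA+ reads, was counted in 28 members (5.56%, against 3.78% of all fragments and 1.52% of the other fragments). Fewer cells and less RNA per cell cannot be told apart in such bulk libraries.

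These counts depended on the scaling of the libraries. When every library was brought to an equal total over the fragments, 84 members (16.7%) were at least 2-fold higher in the nucleus, against 20.8% of all fragments. On that scale 156 members (31%) were at least 2-fold higher in the cytoplasm, against 30.2%. Likewise 229 members (45.4%, against 45.3%) were higher in polyA- and 72 members (14.3%, against 10.9%) in polyA+. With the libraries scaled to a median ratio of 1, 54 members (10.7%, against 13.4%) were nuclear and 186 (36.9%, against 36.8%) cytoplasmic. On this scale 114 members (22.6%, against 23.8%) were polyA- and 147 (29.2%, against 30.2%) polyA+. The order of members within a pair of libraries does not change with these factors, so the shares below are used to compare members with each other and not to say which fraction holds more of a given RNA.

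For each member with at least 20 reads over both libraries, the polyA- share is the polyA- reads as a percentage of polyA- and polyA+ reads, and the cytoplasmic share is the cytoplasmic reads as a percentage of cytoplasmic and nuclear reads. The median polyA- share was 77.1% over 451 members (95% binomial interval of the median 75 to 79.2) and 80% over 303 other fragments (77.3 to 82.1). The median cytoplasmic share was 4.35% over 428 members (4.0 to 5.0) and 2.93% over 294 other fragments (2.48 to 3.39). The 2 shares ran against each other over 422 members (Spearman correlation -0.51), as points that come from the same 4 libraries.

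Most members were introns. The bases of 475 members (94.2%, Wilson interval 91.9 to 96.0) lay for the most part outside the annotated exons of protein-coding genes. The other 29 members (5.75%), in 15 host genes, lay at least 50% inside exons of some isoform of such genes. Exons of non-coding genes were not examined. Of the intronic members, 425 were in introns of the Ensembl canonical transcript of the host. Another 50 members in 22 hosts lay in introns that only longer isoforms of the host contain. The first intron held 91 of the 425 (21.4%, Wilson interval 17.8 to 25.6) and later introns held 334. First introns made up 25.4% of the intron bases of the hosts on average over these members, and 24.6% of the intron bases of all coding genes. The second intron held 83 members and the third 55. The longest intron of the host held 231 members (54.4%, 49.6 to 59.0), and on average that intron made up 45.7% of the intron bases. Of the 91 members in a first intron, 76 were in a first intron that was also the longest.

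Along the host gene, members were spread from start to end. The midpoint of the median member stood 51.2% of the way from the start to the end of the gene, with quartiles at 27.9% and 69.6%. From the start to the end of the gene, bins of 20% of its length held 92, 93, 123, 119 and 77 members. Only 3 members came within 1 kb of the annotated start and 1 within 1 kb of the annotated end. The median position was 46.6% when the span of the canonical transcript was used in place of that of the gene.

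The polyA- share was higher in longer introns, a comparison that was not among those planned. It had a median of 58.6% (46.4 to 67.2) over 41 members in introns under 10 kb and 58.6% (52.0 to 64.2) over 53 members in introns of 10 to 20 kb. In introns of 20 to 50 kb the median was 77.1%, in introns of 50 to 100 kb 81.3%, and in introns of at least 100 kb 86.0% (83.3 to 87.9, 141 members). Over 390 members in canonical introns, the Spearman correlation between intron length and polyA- share was 0.55. The cytoplasmic share was lower in longer introns, with medians over the same bins of 14.8%, 9%, 4.28%, 3.19% and 3.12%, and a Spearman correlation of -0.45 over 367 members. Long introns were not all alike: the 5 members in a 168583-base intron of HTR1F, a serotonin receptor gene, had polyA- shares from 46.1% to 87.5%. Within 37 hosts with members in introns of different length, the longest such intron had the higher median polyA- share in 22 hosts and the lower in 15.

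First introns had a higher median polyA- share than later introns over all lengths, and the intervals overlapped there as well as within each length class from 20 kb upwards. The median polyA- share was 82.6% (77.9 to 86.5) over 79 members in first introns and 76.7% (73.9 to 79.3) over 311 members in later introns. The median intron was 104.0 kb long for the first group and 47.0 kb for the second. Among introns of 20 to 100 kb, the medians were 76.1% and 79.3%, so that the direction turned, and among introns of at least 100 kb they were 87.1% and 85.1%. In the 10 hosts with members in a first and in a later intron, the first intron was higher in 6 and lower in 4. The cytoplasmic share was 3.01% in first and 4.69% in later introns, and 4.00% in both among introns of 20 to 100 kb.

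The position along the gene showed a smaller change. Over the same bins of 20% of the gene, intronic members had median polyA- shares of 81.2%, 78.3%, 79.7%, 76.5% and 68.5%. Their median cytoplasmic shares were 3.77%, 4.21%, 3.87%, 3.85% and 6.25%. The distance from the member to the end of the host had a Spearman correlation of 0.50 with the polyA- share over 451 members, and host length had one of 0.48. Intron length, host length and distance to the end are not separate measures, since long introns sit in long genes.

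Members with a long run of A on the host strand had more polyA+ reads, also in a comparison that was not among those planned. The 58 members with a run of at least 15 A and enough reads had a median polyA- share of 63.5% (58.1 to 70.1), and the 393 others had 78.7% (76.3 to 80.5). With runs of at least 20 A the median was 53.1% (46.3 to 75) over 23 members. With runs of at least 15 T on the host strand the median was 79.0% (70.4 to 83.7, 28 members). Members with a long A run were also longer, at a median of 3436 bases against 1947. Among members of 2000 to 5000 bases, the medians were 61.3% with a run and 77.8% without. Within the 22 hosts that had members of both kinds, those with a run were lower in 18 and higher in 4, with a median difference of -8.90 percentage points. For T runs, 20 hosts had members of both kinds, and those with a run were lower in 12 and higher in 8 (median difference -2.34 percentage points). HIVEP1 member 1, with one of the longest A runs, had 5 cytoplasmic, 84 nuclear, 141 polyA+ and 92 polyA- reads. RUNX1 member 3, with the longest A run of all intronic members at 30 bases, had 5, 55, 37 and 70 reads. Its polyA- share of 65.4% was above the median of the members with a run. On the TNIK member, which has the longest T run, there were 2, 228, 30 and 208 reads in the same order. The beads bind A-rich RNA, and their part in this difference was not tested. Members with the Alu word on the host strand had a median polyA- share of 69.6% (58 members), those with it only on the other strand 80.5% (13 members), and those without it 78.0%.

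The 29 exonic members had more polyA+ and more cytoplasmic reads than the intronic ones. Their median polyA- share was 40.6% (28.9 to 69.6, 25 members) against 77.8% (75.8 to 80) for introns, and their median cytoplasmic share 34.7% (18.7 to 43.5) against 4.19% (3.85 to 4.70). Counting only exons of the canonical transcript as exonic gave polyA- medians of 63.1% and 77.2%, a smaller difference in the same direction. Of the 29 members, 12 were at least 50% coding sequence, all in EZH2, GOLGA1, EXOC4, SCFD2 and FARS2. All 11 members shorter than 200 bases were exonic, and 4 of the 29 equalled 1 annotated exon to within 1 base at both ends. The 4 members printed above are among these 12.

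The coding exon members fell into 2 sets by their polyA counts, a split made after the values were seen. In EZH2, the PRC2 gene itself, the member printed above had 17 cytoplasmic, 17 nuclear, 38 polyA+ and 6 polyA- reads. Its GOLGA1 counterpart (a golgin of the Golgi apparatus) had 16, 16, 26 and 7 reads in the same order. Together with a second EZH2 exon, their polyA- shares were 13.6% to 21.7% and their cytoplasmic shares 43.5% to 50%. The other set was 9 members in EXOC4 (a subunit of the exocyst), SCFD2 and FARS2 (a mitochondrial tRNA synthetase). EXOC4 member 1, 68 bases of exon 2, had 12 cytoplasmic, 28 nuclear, 3 polyA+ and 18 polyA- reads, and member 3, in exon 6, had 24, 33, 6 and 26. Over the 9 members the polyA- shares were 57.1% to 85.7% and the cytoplasmic shares 30% to 62.9%. Both sets were thus high in the cytoplasmic share, and these shares include members with fewer than 20 reads. Counts of this size are imprecise: the exact interval of the polyA- share was 63.7% to 97.0% for EXOC4 member 1 and 5.17% to 27.4% for the EZH2 exon.

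The other 17 exonic members, less than 50% coding by length, were mostly untranslated or non-coding exon sequence of some isoform, in 12 hosts. No exon of the host's canonical transcript overlapped HNRNPU member 2, XRRA1 member 2, NRG4 member 1, THOC1 member 1 or MACROH2A1 member 1. The same held for ZEB2 member 5, ZNF117 member 1 and EXOC4 member 5. HNRNPU member 1, in the last exon of a gene for an RNA-binding nuclear matrix protein, had 101 cytoplasmic, 572 nuclear, 612 polyA+ and 464 polyA- reads. MACROH2A1 member 2, in a gene for a histone H2A variant of repressed chromatin, had 144, 217, 336 and 151. VEGFA member 1, in the angiogenic growth factor gene, had 10, 80, 171 and 48. ZEB2 differed from these, with 109 cytoplasmic, 643 nuclear, 123 polyA+ and 598 polyA- reads on member 8 (polyA- share 82.9%). ZEB2 member 5 (90.6%), EXOC4 member 5 (73.9%), THOC1 member 1 (71.1%) and RPL27A member 1 (59.0%) were also above 50%. All others of the 17 were below 50%. ZEB2 encodes a zinc finger repressor of transcription.

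**Figure D2:**
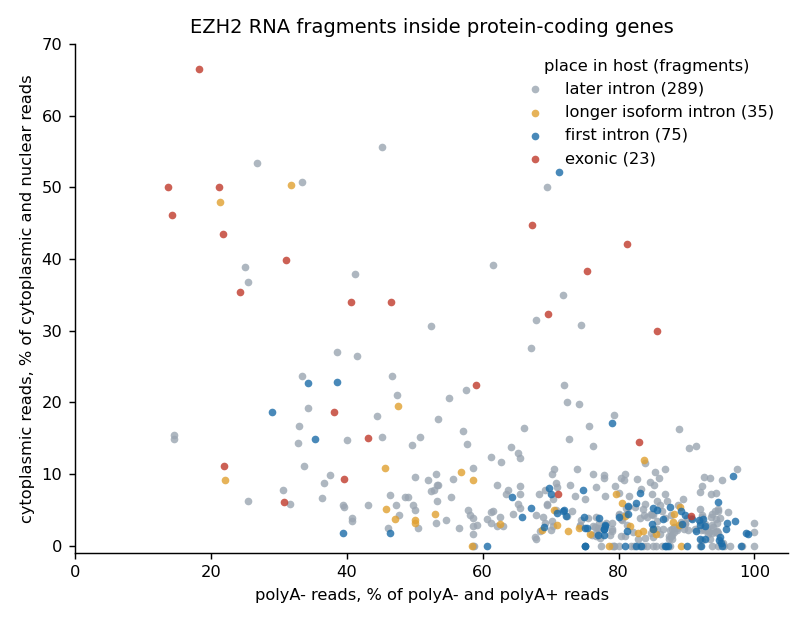
Cytoplasmic share of reads (y axis, %) against polyA- share (x axis, %) of the 422 fragments with at least 20 reads in both pairs of libraries, coloured by their place in the host gene. Intronic fragments crowd at polyA- shares over 70% and cytoplasmic shares under 10%, and 14 of the 29 fragments at a cytoplasmic share of 30% or more are exonic.

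The members lay in 232 host genes, 1.16% of the protein-coding genes. There were 146 hosts with 1 member, 60 with 2 to 4 and 26 with at least 5, and these 26 held 199 members (39.5%). Hosts were long, with a median of 174 kb against 27.4 kb over the 20046 protein-coding genes of the annotation, and hosts with at least 5 members had a median of 406 kb. Over the hosts, the number of members had a Spearman correlation of 0.38 with host length and -0.020 with the host's FPKM in the input RNA (230 hosts). Neighbouring members of a host were a median of 13.1 kb apart (quartiles 4.08 and 35.4 kb), and in 27 of the 86 hosts with more than 1 member all lay in a single intron. Some placements were not unique: 4 members lay in ENSG00000239920, a readthrough gene that also spans HBE1, HBG2 and OR51B5. The input RNA listed this gene at 0 FPKM, so these 4 placements rest on its annotated span alone. At least 50% of the length of 50 members lay inside a non-coding gene as well (median polyA- share 78.0%, 44 members). Chromosome 7 held 86 members, chromosome 6 49 and chromosome 1 45.

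Members of the same host resembled each other in polyA- share. Over 80 hosts with at least 2 members of enough reads, the SD between members of a host was 11.9 percentage points and the SD between host means was 17.9. In the counts as deposited, all members of 55 of these hosts were above 50% polyA- and all members of 6 were below. The other 19 hosts had members on both sides, and the 50% line depends on the scaling of the libraries. Hosts with at least 5 members had the highest share, with a median of 84.9% (82.6 to 86.5), against 72.0% for hosts with 2 to 4 and 65.2% (59.1 to 70.7) for hosts with 1. Members of a host lie in the same gene span and were counted in the same 4 libraries, so they are not independent points. Whether their reads come from the same transcript was not tested.

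CPED1, on chromosome 7q, held the most members, 18 in 7 later introns, with 106 cytoplasmic, 2958 nuclear, 973 polyA+ and 2936 polyA- reads in sum. Its polyA- shares ran from 58.6% to 93.8%, and 10 of the 18 lay in intron 16. IMMP2L, a subunit of the mitochondrial inner membrane peptidase, held 12 members, 9 of them in intron 3, with polyA- shares of 78.0% to 100.0%.

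ARHGAP6, which encodes a GTPase-activating protein on chromosome X, held 12 members with 66 cytoplasmic, 2125 nuclear, 165 polyA+ and 1995 polyA- reads in sum. The first intron, 409533 bases long, held 10 of them. From the upstream end, member 1 of this intron had 1 polyA+ and 110 polyA- reads, member 2 had 4 and 303, member 3 had 11 and 257, and member 4 had 14 and 272. Members 11 and 12, in intron 2, had 68 and 289, and 14 and 102. Their polyA- shares of 81.0% and 87.9% stood below those of 9 of the 10 members of intron 1, which were 82.6% to 99.1%. ARHGAP6 supplied 5 of the 10 members with the highest ratio of polyA- to polyA+ reads.

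MAML2, a coactivator of Notch signalling, and SLC25A21, a mitochondrial carrier, had 6 members each, all in their first introns. The MAML2 members had 2, 4, 5, 10, 8 and 7 polyA+ reads from the upstream end, and 67, 49, 58, 30, 34 and 40 polyA- reads. The first 3 had polyA- shares of 92.1% to 97.1% and the last 3 of 75% to 85.1%. In SLC25A21 the nuclear reads were 14, 14, 43, 113, 20 and 23, and only 3 of its members had 20 reads over the polyA libraries, with polyA- shares of 69.7% to 92.0%.

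MBNL1, a regulator of alternative splicing, held 8 members in intron 2 and 1 in intron 3. Those in the 114573-base intron 2 had polyA- shares from 88.7% to 100.0%. The member in the 17605-base intron 3 had 45 cytoplasmic, 535 nuclear, 257 polyA+ and 576 polyA- reads, a share of 69.2%. ZEB2 held 6 intronic members, all in intron 2, and its largest had 52, 1281, 185 and 1224 reads in the same order of libraries.

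TBXAS1, the thromboxane synthase gene, had the lowest shares among hosts with at least 5 members. Its first member had 13 cytoplasmic, 74 nuclear, 283 polyA+ and 48 polyA- reads, a polyA- share of 14.5% with an exact interval of 10.9% to 18.8%. Member 2 had 3, 36, 59 and 26 reads, and the other 3 members had shares of 50% to 58.5%. HTR1F came next, with 529 polyA+ and 730 polyA- reads over its 5 members. FGF13, a fibroblast growth factor homologue that stays inside the cell, held 11 members in introns of its longer isoforms. They had 0 cytoplasmic, 43 nuclear, 5 polyA+ and 40 polyA- reads in sum, and none had enough reads for a share. Under 20 nuclear reads were counted on 90 members in 66 hosts.

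The other hosts with at least 5 members had median polyA- shares from 68.5% to 87.9%. CHST11 (a chondroitin sulfotransferase) and SMYD3 (a lysine methyltransferase) had 10 members each, ARL15 9, and MAN1A1 (a Golgi mannosidase) and SND1 8. ABL1, FAF1, KCNJ16 (a potassium channel), NCAM2 (a cell adhesion protein), PRKCB (protein kinase C beta), ZFPM2 (a cofactor of GATA factors) and EXOC4 had 6, and PKP4, RUNX1, SCFD2 and STXBP5 had 5. MAN1A1 member 8, 10.6% coding exon by length, was among the 10 members with the highest cytoplasmic share, with 82 cytoplasmic, 82 nuclear, 33 polyA+ and 75 polyA- reads.

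The members with the highest ratio of polyA+ to polyA- reads were a mixed group of exons and introns. TBXAS1 member 1, above, was among them, as were SLC6A6 member 4 (a taurine transporter, 53 polyA+ and 9 polyA- reads) and PSMA1 member 3 (a proteasome subunit, 495 and 134). PSMA1 member 3 was also high in the cytoplasm, with 126 cytoplasmic and 137 nuclear reads. JAK2 member 2 had 64 polyA+ and 18 polyA- reads, and NLRP1 member 2 46 and 13. XRRA1 member 2, with 119 and 38 reads, lay in a stretch that RNF169 on the other strand shares. Whether counting used the strand is not given in the sources used here, so reads of the 2 genes cannot be told apart, as for 15 members in coding genes on both strands. These 15 had a median polyA- share of 47.6% (40.6 to 86.5). ENSG00000283515, a readthrough gene with ERVK3-1, had 465 and 159 reads on its member, which lay 100% inside non-coding gene annotation too. At the other end, GABRG3 member 3 (a GABA receptor subunit) had 6 polyA+ and 150 polyA- reads, KCNQ5 member 2 (a potassium channel) had 4 and 79, and SGMS1 member 2 (a sphingomyelin synthase) had 11 and 226. These 3 lay in introns of 299987, 381320 and 89130 bases. The GABRG3 member also lay 100% inside non-coding gene annotation, which includes GABRG3-AS1.

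Per length, the nuclear library gave 478 reads per kb on EXOC4 member 3 and 412 on member 1. These rest on 33 and 28 reads over 69 and 68 bases, and since a read that overlaps a member only in part can count in full, rates of members this short cannot be compared with those of long introns. Among introns, STXBP5 member 1 had 334 nuclear reads per kb and MBNL1 member 1 had 199. NUP214 member 2, in intron 30 of a nuclear pore gene, had 55 cytoplasmic, 308 nuclear, 403 polyA+ and 331 polyA- reads. Among all members the cytoplasmic share was highest on EZH2 member 1, with 204 cytoplasmic and 103 nuclear reads (66.4%). That member takes in bases of exons 10 and 11 and of canonical intron 10, and was 33.9% coding sequence by length. Among members that are mostly intron the cytoplasmic share was high on DGCR2 member 1 (50 and 40 reads), GOLGA1 member 2 (47 and 41) and B3GALT1 member 1 (36 and 35). The first of these was 29.3% exon by length and the second 38.3%, whereas the B3GALT1 member held no exon base of a coding gene. That member also lay 100% inside non-coding gene annotation, which includes B3GALT1-AS1, and exons there were not examined. COA1 member 3, with 173 and 171 reads, lay in an intron of a longer isoform and also inside STK17A on the other strand.

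Of 13 genes of PRC2, only EZH2 hosted members. All 4 were exonic by some isoform, and members 1 and 3 were 33.9% and 33.1% coding sequence by length. All 4 had at least 2-fold more polyA+ reads, where 5.56% of members and 3.78% of all fragments did. None had at least 2-fold more nuclear than cytoplasmic reads, where 88.4% of all fragments did. Among 12 genes of BCR-ABL1 and its signalling, ABL1, BCR and JAK2 hosted 11 members, 9 of them at least 2-fold higher in the nucleus (88.4% of all fragments were) and 10 in polyA- RNA (64.3% of all fragments). ABL1 members 1 to 5 lay upstream of the canonical transcript. The largest of these had 15 cytoplasmic, 237 nuclear, 64 polyA+ and 264 polyA- reads, and member 6, in intron 3, had 15, 61, 25 and 72. BCR member 2, mostly in the first intron but 9.98% coding exon by length, had 48, 44, 21 and 52 reads. RNA from the fusion and from the normal alleles cannot be told apart in these counts.

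Among 37 erythroid genes, ANK1, GYPC, RHAG and RUNX1 hosted 8 members. All 8 were at least 2-fold higher in the nucleus and 4 in polyA- RNA, near the 88.4% and 64.3% of all fragments. RUNX1, a transcription factor of blood development, held 5 of them near the end of a very long gene span, 92.7% to 98.0% of the way along. Member 3, with the longest A run of all intronic members, had 5 cytoplasmic, 55 nuclear, 37 polyA+ and 70 polyA- reads, and member 4, without a long A run, had 4, 77, 62 and 85. RHAG, the Rh-associated glycoprotein, had 5, 120, 46 and 137 reads on its member. Among 40 chromatin genes, ARID1B and EHMT1 hosted 1 member each. Among 24 genes known to span common fragile sites, EXOC4, FAF1, FHIT and IMMP2L hosted 26 members. IMMP2L alone held 12 of these, with a median polyA- share of 90.6%, and the 2 members of FHIT had 52.3% and 61.3%.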

How the data were processed

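The authors made stranded RNA-seq libraries (ScriptSeq after rRNA depletion) from cytoplasmic, nuclear, nuclear polyA+ and nuclear polyA- RNA of K562 cells. They trimmed reads with Trim Galore, aligned them to GRCh38 with STAR and GENCODE 26, removed PCR duplicates with SAMtools and dropped reads with a mapping quality under 20. Read counts per EZH2 RIP-seq fragment, whole numbers without normalization, were deposited by the authors after featureCounts, whose strand setting is not given in the sources used here. The authors deposited FPKM values of the input RNA from Cuffdiff.

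Fragments were placed on GENCODE 44 genes with Python 3.11.15, pandas 2.3.3 and pysam 0.24.0. A host was the coding gene that held most of the member, ties going to the longer gene. Shares needed at least 20 reads over 2 libraries. Intervals were Wilson, exact Clopper-Pearson or order-statistic intervals at 95%, from scipy 1.17.1. The 2-fold calls were tested only on simulated polyA counts averaging at least 20 reads, with changes larger than 2-fold. They were not tested at the low depth of the cytoplasmic library, and the intervals were not tested. PCR reads are not independent molecules, so the intervals cover counting error only. Each fraction had 1 library, so there were no tests. Named were hosts with at least 5 members, the 10 members highest in nuclear reads per kb, in either polyA ratio or in cytoplasmic share (the last 3 with at least 50 reads), and members in PRC2, BCR-ABL1 and erythroid genes. Other members were named after their values were seen: those with the longest runs, exonic members, and the cytoplasmic and polyA- members listed last. The members and lists were chosen with earlier results of these data known. Some genes and sequences are not reported here.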

Additional observations from a re-analysis of the deposited data

How the results depend on the processing

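No paired analysis was possible because each fraction had 1 library, which also left no replicate to leave out. There were 66 alternatives for 13 results (51 planned, 15 added after seeing the data). Of these 66, 47 neither reversed the direction nor moved the value beyond its interval, or 1.5 times for counts. The comparisons by A run and by intron length were themselves not among the planned results. The count of members at least 2-fold higher in the nucleus was 454, and 84 and 54 after scaling to the sums and to the median ratio. For polyA- it was 333, and 114 after scaling to the median ratio and 213 at 4-fold. For polyA+ it was 28, and 72 and 147 after the 2 scalings, 76 with any excess and 5 at 4-fold.

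The first minus later difference in the polyA- share was 5.88 percentage points, and 7.84 with 1 value per host, -3.24 in introns of 20 to 100 kb and 2.04 in introns of at least 100 kb. That in the cytoplasmic share was -1.68, and -2.87 with 1 value per host, -1.06 in introns of at least 100 kb and 0.0 in introns of 20 to 100 kb, where no direction was left. The intronic minus exonic difference in the cytoplasmic share was -30.5, and -11.5 with any exon base counted as exonic. In the polyA- share it was 37.2, and 21.3 and 14.1 under the other exon definitions. The A run difference was -15.2, and -9.36 at 10 bases, -24.8 at 20 bases, -11.0 with 1 value per host and 2.10 for T. The median position was 51.2%, and 46.6% on the canonical span. Depth limits the cytoplasmic library most, and the cause of these changes was not tested.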

Other observations

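A set of members combined a cytoplasmic share of at least 30% with a polyA- share of at least 60%, chosen after the values were seen. The 60% mark is below the median polyA- share of all members, 77.1%, so the set is not high in that share. Both marks refer to the shares as deposited. Of the 422 members with enough reads in both pairs of libraries, 29 had a cytoplasmic share of at least 30%, and 17 of these were under 50% polyA-. At the other end, 11 of the 29 had a polyA- share of at least 60%. They were 5 exonic members (EXOC4 members 1, 2 and 3, SCFD2 member 1 and FARS2 member 1) and 6 that are mostly intron, among them members in ZEB2, MARCHF7, BCR and MAN1A1. Of these 6, BCR member 3 alone held no exon base, and exons made up as much as 48.7% of the length in ZEB2 member 1. SCFD2 member 1 had 47 cytoplasmic, 58 nuclear, 21 polyA+ and 43 polyA- reads, and FARS2 member 1 had 43, 69, 16 and 49. MARCHF7 member 1, in a ubiquitin ligase gene and 8.33% coding exon by length, had 36, 56, 37 and 59 reads. BCR supplied members 2 and 3, the latter with 21, 39, 20 and 51 reads.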
